A study of Homo sapiens with 28 samples.

Results

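The insulin-like growth factor (IGF) receptors, binding proteins and receptor adaptors were described in LNCaP, a human prostate cancer cell line. The 10 genes were *IGF1R*, *IGF2R* and *INSR* (receptors), *IGFBP2*, *IGFBP3*, *IGFBP4*, *IGFBP5* and *IGFBP6* (binding proteins), and *IRS1* and *IRS2* (adaptors), chosen by name from the 26443 genes that carried a value. RNA abundance was measured by polyA RNA-seq in 28 libraries, in units of FPKM (fragments mapped to a gene, scaled to its length and to all mapped reads). The knockdown series had 8 groups of 2 libraries, in which a control hairpin (shCtrl) or a hairpin against *HOXB13* (shHOXB13) stood alone or was joined by a hairpin against p300 (shp300), against CBP (shCBP) or by the pair (shp300/CBP). The CCS1477 series had 4 groups of 3 libraries, in which shCtrl or shHOXB13 cells received either DMSO or 250 nM CCS1477, a p300/CBP inhibitor, over 48 hours. The comparisons asked what HOXB13 KD did to these RNAs, and what loss or inhibition of p300 and CBP did to them in HOXB13 KD and control cells. All groups were the same cell line, all carried at least 1 lentiviral hairpin, and each target was hit by 1 hairpin sequence, so that off-target effects of a hairpin and effects of its target cannot be told apart. No group label named a control for the added hairpins. In those contrasts, carrying a further hairpin and loss of p300 or CBP cannot be told apart either.

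IGF1R and INSR are receptor tyrosine kinases for IGFs and insulin, and IRS1 and IRS2 are the docking proteins that link them to PI3K and AKT. IGF2R binds IGF2 and carries it to the lysosome rather than signalling growth, and the IGFBPs are secreted proteins that hold IGFs in the extracellular fluid and set their access to IGF1R. In prostate cells, IGF signalling supports survival and proliferation and crosses with androgen receptor signalling.

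*HOXB13*, the homeobox gene under the hairpin, was at 87.6 and 85.4 FPKM in the 2 shCtrl libraries and at 11.2 and 11.4 FPKM in the 2 shHOXB13 libraries, and at 140 to 147 and 28.4 to 32.2 FPKM in the DMSO-treated pair of groups. *EP300* was lower with shp300 in both backgrounds (log2 −1.24 in shCtrl and −0.79 in shHOXB13 cells by limma, adjusted p = 0.0018 and 0.011). *CREBBP* was lower with shCBP in shCtrl cells (log2 −0.95 by limma, adjusted p = 0.0041) but did not pass in shHOXB13 cells (log2 −0.64 by limma, adjusted p = 0.064), and in shHOXB13 cells with shp300/CBP neither target passed (log2 −0.41 and −0.27 by limma, adjusted p = 0.073 and 0.23). In shCtrl cells with shp300/CBP both were lower (log2 −0.90 and −0.50 by limma, adjusted p = 0.0023 and 0.044). The targets also varied with treatments not aimed at them. *HOXB13* was lower in shCtrl cells with shCBP (log2 −0.87 by limma, adjusted p = 0.0086) and with shp300/CBP (log2 −0.81 by limma, adjusted p = 0.0064), and in shHOXB13 cells with shp300/CBP (log2 −0.80 by limma, adjusted p = 0.0051). *EP300* was lower with shHOXB13 in both series (log2 −0.92 and −0.86 by limma, adjusted p = 0.00067 and 4.4e-05), and *CREBBP* with DMSO (log2 −0.97 by limma, adjusted p = 6.3e-06) though not past the threshold in the knockdown series (log2 −0.32 by limma, adjusted p = 0.12). With CCS1477 in shHOXB13 cells *CREBBP* and *EP300* were higher (log2 1.16 and 0.74 by limma, adjusted p = 5.8e-06 and 0.00035), and in shCtrl cells *CREBBP* was (log2 0.42 by limma, adjusted p = 0.0099). The part of these shifts in the results for the 10 genes was not tested.

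Mapped reads per library ran from 7458934 to 16338528, and replicates correlated at r = 0.9508 or above on the log2 scale across genes. The 2 shHOXB13+shp300/CBP libraries gave that lowest value and stood apart from each other (chi-square of their reads per degree of freedom 22.5). In the CCS1477 series shCtrl DMSO #1 (13.9 and 14.4 against the other two, which gave 1.72) and shCtrl CCS1477 #1 (22.8 and 26, against 4.43) also stood apart. Fold changes of the 10 genes that rest on these libraries are given with and without them, while values for other genes and medians are not. All 9 luminal markers of LNCaP were read in every library, while *TP63* (basal), *DCN* and *COL1A2* (fibroblast), *PECAM1* and *CDH5* (endothelial), and *PTPRC*, *CD3E* and *MS4A1* (immune) stayed at or below 0.124 FPKM. Some single genes of those lists varied between the groups (*ACTA2* from 0.735 to 58.4 FPKM, *CD68* from 2.35 to 40.2 FPKM, *COL1A1* from 0.89 to 17.8 FPKM, *KRT14* from 0 to 4.69 FPKM, *LUM* from 0 to 2.03 FPKM, *VWF* from 0.208 to 2.87 FPKM). With shHOXB13 in the knockdown series, *ACTA2* went from 10.6 and 9.52 to 1.3 and 1.08 FPKM. *CD68* went from 4.18 and 5.74 to 9.3 and 12.3 FPKM, and *COL1A1* from 1.59 and 1.13 to 4.93 and 4.22 FPKM. With DMSO the endothelial markers summed to 2.34 to 2.89 FPKM in shCtrl and 0.489 to 0.646 FPKM in shHOXB13. The basal markers summed to 2.83 to 4.69 and 0.0398 to 0.106 FPKM there. Only some of these shifts are given again below, and their part in any result was not tested. The median of all genes tested was −0.33 log2 for shHOXB13 against shCtrl in both series, and 0.20 log2 for CCS1477 in shHOXB13 cells, so changes of that size in FPKM were general; rescaling libraries to a common median ratio brought these medians to 0.00, −0.02 and 0.01.

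*IGF1R*, *INSR*, *IRS1* and *IGFBP2* were lower with shHOXB13 in both series (*INSR* in the knockdown series by no more than the general shift, −0.06 log2 with rescaled libraries), and their promoters are shown for that reason, as the 250 bases before the annotated RefSeq start on GRCh38.p14, written 5′ to 3′ on the strand of the gene. Capitals mark the GC box, searched as GGGCGG or its reverse complement CCGCCC, the element bound by Sp1-type factors. *IGF1R* (chr15:98648289-98648538, plus strand) held 2 matches, *INSR* (chr19:7294415-7294664, minus strand) 4, *IRS1* (chr2:226799821-226800070, minus strand) 4, and *IGFBP2* (chr2:216632578-216632827, plus strand, the first of 3 listed starts) 1.
IGF1R: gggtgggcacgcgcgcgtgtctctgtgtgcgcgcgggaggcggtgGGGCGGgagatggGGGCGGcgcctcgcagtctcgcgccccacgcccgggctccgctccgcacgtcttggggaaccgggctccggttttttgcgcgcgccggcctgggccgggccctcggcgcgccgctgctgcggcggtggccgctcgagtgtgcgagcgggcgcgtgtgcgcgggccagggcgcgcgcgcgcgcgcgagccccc
INSR: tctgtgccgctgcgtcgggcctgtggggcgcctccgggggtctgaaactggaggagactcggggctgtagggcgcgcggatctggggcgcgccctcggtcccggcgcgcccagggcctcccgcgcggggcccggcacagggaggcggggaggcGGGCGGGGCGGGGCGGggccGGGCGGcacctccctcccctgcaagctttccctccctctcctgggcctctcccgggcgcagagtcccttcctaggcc
IRS1: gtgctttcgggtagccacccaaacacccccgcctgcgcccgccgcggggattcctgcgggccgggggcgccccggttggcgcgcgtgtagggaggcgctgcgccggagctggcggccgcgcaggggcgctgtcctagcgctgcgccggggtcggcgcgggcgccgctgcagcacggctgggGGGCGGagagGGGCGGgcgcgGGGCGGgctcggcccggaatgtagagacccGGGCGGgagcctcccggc
IGFBP2: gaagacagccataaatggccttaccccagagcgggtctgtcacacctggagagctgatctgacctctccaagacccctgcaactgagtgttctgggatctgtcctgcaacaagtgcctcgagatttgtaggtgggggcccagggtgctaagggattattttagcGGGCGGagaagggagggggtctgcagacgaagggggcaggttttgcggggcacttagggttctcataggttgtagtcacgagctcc
A GC box was present in 42.6% of all 35116 promoter windows of this length, whose mean GC content was 57.2%, against 81.2% for *IGF1R*, 78.4% for *INSR*, 80.8% for *IRS1* and 56.8% for *IGFBP2*. TATAAA (10.7% of promoters, either strand) was found in none of these 4 windows, and the HOXB13 motif CCAATAAA (0.863% of promoters) was also in none. The androgen receptor half-site TGTTCT (12.4% of promoters) was present once in the *IGFBP2* window and not in the other 3. The *IGFBP2* values depend on the start chosen. The window at chr2:216633170-216633419 had 69.2% GC, 1 GC box and no half-site. The window at chr2:216659317-216659566 had 56.4% GC, no GC box and 1 half-site. GC boxes were not particular to the genes that fell, since the windows of *IGF2R* and *IRS2*, which rose with shHOXB13 in the knockdown series, held 6 and 5. *IGFBP2* (chr2:216632828-216664436, plus strand) and *IGFBP5* (chr2:216672105-216695549, minus strand) are neighbours that share no exon, and in the knockdown series they moved in opposite directions with shHOXB13.

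HOXB13 KD lowered *IGFBP2* most, then *IRS1* and *IGF1R*, in both series, and *INSR* beyond the general shift in the CCS1477 series. In the knockdown series it raised *IRS2*, *IGF2R* and *IGFBP5*, the last a gene that reached 0.1 FPKM mainly in shHOXB13 libraries. In the CCS1477 series the *IRS2* and *IGF2R* differences passed only with rescaled libraries, and *IGFBP5* was not tested. With shp300, shCBP or shp300/CBP added to shHOXB13, *IGF1R* and *IGFBP2* remained below every shCtrl library of the knockdown series. The combined hairpins lowered *IRS2* and *IGFBP2* in HOXB13 KD cells and raised *IGFBP5* and, with a call that hung on single libraries, *INSR*. None of these passed with only the groups compared in the fit. In those cells *HOXB13* was also lower, and neither *EP300* nor *CREBBP* passed as lower. CCS1477 in HOXB13 KD cells raised *IGFBP3*, *IRS1* and *INSR* and lowered *IRS2*.

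**Figure D1:**
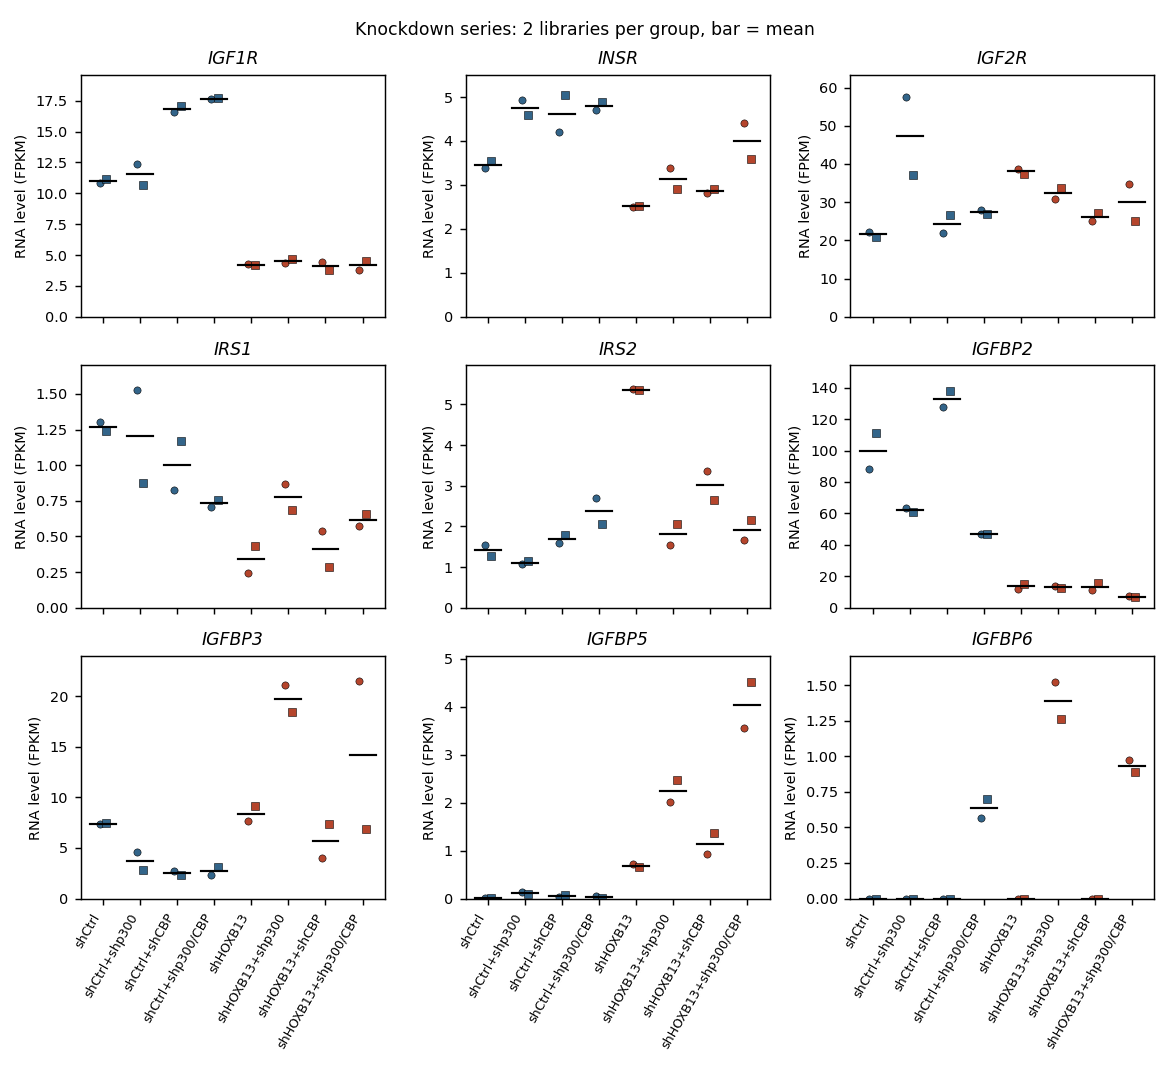
RNA level (FPKM, linear axis from 0) of the 9 members that could be tested in the knockdown series, by group, with 1 point per library (circle, replicate 1; square, replicate 2) and a bar at the mean; blue, shCtrl arms; red, shHOXB13 arms. *IGF1R* and *IGFBP2* are lower in all 8 shHOXB13 libraries than in all 8 shCtrl libraries, whereas *IGFBP5* is higher in all 8.

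Of the members, *IGF2R* had the highest FPKM in shHOXB13 cells, and *IGFBP2* in shCtrl cells. In the 2 shCtrl libraries the mean levels were 99.4 FPKM for *IGFBP2*, 21.5 for *IGF2R*, 11 for *IGF1R*, 7.42 for *IGFBP3*, 3.46 for *INSR*, 1.41 for *IRS2* and 1.27 for *IRS1*, and the libraries of *IRS2* and *IRS1* overlapped. In the 2 shHOXB13 libraries *IGF2R* averaged 38.1 FPKM and *IGFBP2* 13.5 FPKM. *IGFBP4* was not measurably expressed: 8 reads fell on it in all 28 libraries, at most 2 in a library, and it was in no test. *IGFBP5* and *IGFBP6* were tested in the knockdown series only, because in the CCS1477 series they gave 41 reads and 1 read in all, with no library above 0.105 and 0.0949 FPKM.

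*IGF1R*, the main signalling receptor for IGF1, was at 10.8 and 11.2 FPKM in shCtrl libraries and at 4.27 and 4.17 FPKM in shHOXB13 libraries. In the CCS1477 series it was at 11.4, 12.5 and 13.7 FPKM in shCtrl DMSO and at 4.5, 4.55 and 4.59 FPKM in shHOXB13 DMSO. The groups were widely separated in each series, and *IGF1R* fell by 1.36 on the log2 scale in the first (SE 0.13 by limma, adjusted p = 1.1e-05) and by 1.44 in the second (SE 0.10 by limma, adjusted p = 2.1e-07). Fold changes here and below are on the log2(FPKM + 0.1) scale.

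Adding p300 or CBP hairpins to shHOXB13 left *IGF1R* between 3.83 and 4.69 FPKM in all 6 libraries, around the shHOXB13 level and far below shCtrl. None of the 3 contrasts passed (log2 0.10 with shp300, −0.03 with shCBP and −0.02 with shp300/CBP by limma, adjusted p = 0.71, 0.94 and 0.93). The shp300/CBP value ranged from −0.14 to 0.09 with 1 library left out. In control cells, by contrast, *IGF1R* was at 16.6 and 17.1 FPKM with shCBP and at 17.6 and 17.7 FPKM with shp300/CBP, above both shCtrl libraries. These rises passed (log2 0.61 and 0.68, SE 0.13 for each by limma, adjusted p = 0.011 and 0.0037), whereas shp300 alone, at 12.4 and 10.7 FPKM, overlapped shCtrl (log2 0.06 by limma, adjusted p = 0.89). *HOXB13* itself was lower in the shCBP and shp300/CBP groups, as given above. The effect of shp300/CBP on *IGF1R* differed between the backgrounds by −0.70 log2 (SE 0.18 by limma, adjusted p = 0.033). That call was lost with rescaled libraries (log2 −0.62), when any 1 of the 8 libraries except shHOXB13+shp300/CBP #2 was left out (log2 −0.73 to −0.59; without #2 it was −0.81 and passed), and with only the 4 groups fitted; the shCBP call was lost without shCtrl #1 or either shCtrl+shCBP library (log2 0.58 to 0.63).

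CCS1477 lowered *IGF1R* in control cells, from 11.4, 12.5 and 13.7 FPKM to 8.04, 10 and 9.59 FPKM (log2 −0.44, SE 0.10 by limma, adjusted p = 0.0063), a call lost with only the 2 groups fitted. In shHOXB13 cells the 3 treated libraries, at 3.9, 3.75 and 3.76 FPKM, also lay below the 3 DMSO libraries, but the contrast missed the threshold (log2 −0.25, SE 0.10 by limma, adjusted p = 0.058) and passed once libraries were rescaled (log2 −0.46). The drug effects did not differ between backgrounds by test (0.19 log2 by limma, adjusted p = 0.41). In control cells the inhibitor and the combined hairpins went with opposite shifts in *IGF1R*, each measured against its own controls.

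*INSR*, the insulin receptor, was at 3.38 and 3.54 FPKM in shCtrl and at 2.5 and 2.52 FPKM in shHOXB13 libraries (log2 −0.45, SE 0.15 by limma, adjusted p = 0.033). This difference was near the median of all genes, was −0.06 log2 with rescaled libraries, and lost its call when any 1 of the 4 libraries was left out (log2 −0.48 to −0.42). In the CCS1477 series the fall was larger than the general shift, from 4.83, 5.4 and 4.94 FPKM to 2.75, 2.78 and 3.1 FPKM (log2 −0.79, SE 0.10 by limma, adjusted p = 2.4e-05). It kept its call under every setting tried there.

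In shHOXB13 cells *INSR* was at 4.42 and 3.6 FPKM with shp300/CBP, above both shHOXB13 libraries and both shCtrl libraries (log2 0.65, SE 0.15 by limma, adjusted p = 0.0084). Without shHOXB13+shp300/CBP #1 the value was 0.51 and without #2 it was 0.80, and the call was lost without the former or without shHOXB13 #1 (log2 0.65). The other hairpin contrasts did not pass. In shHOXB13 cells *INSR* was at 3.38 and 2.9 FPKM with shp300, and shCBP left it at 2.81 and 2.91 FPKM (log2 0.31 and 0.18 by limma, adjusted p = 0.25 and 0.55). In shCtrl cells it was at 4.93 and 4.58 FPKM with shp300, at 4.2 and 5.04 FPKM with shCBP, and at 4.71 and 4.88 FPKM for shp300/CBP, all above both shCtrl libraries (log2 0.45, 0.40 and 0.46 by limma, adjusted p = 0.15, 0.11 and 0.056). The shp300/CBP effects differed by 0.19 log2 (by limma, adjusted p = 0.64; 0.05 without shHOXB13+shp300/CBP #1 and 0.34 without #2).

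CCS1477 raised *INSR* in shHOXB13 cells to 4.61, 4.39 and 4.7 FPKM, clear of all 3 DMSO libraries (log2 0.65, SE 0.10 by limma, adjusted p = 0.00028). In shCtrl cells it was at 4.9, 5.17 and 5.69 FPKM with CCS1477, overlapping DMSO (log2 0.05 by limma, adjusted p = 0.74), and the 2 drug effects differed by 0.60 log2 (SE 0.14 by limma, adjusted p = 0.015).

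*IGF2R*, the mannose-6-phosphate receptor that clears IGF2, was the most abundant receptor. It was at 22.3 and 20.8 FPKM in shCtrl and at 38.8 and 37.4 FPKM in shHOXB13 libraries, a rise of 0.82 log2 (SE 0.20 by limma, adjusted p = 0.006). In the CCS1477 series the groups overlapped, with 64.7, 81.4 and 78 FPKM in shCtrl DMSO and 75.1, 83.6 and 82.7 FPKM in shHOXB13 DMSO (log2 0.11, SE 0.10 by limma, adjusted p = 0.37), and the difference passed only with rescaled libraries (log2 0.46). *IGF2R* also differed in level between the 2 series, which were fitted apart and are not compared.

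With shp300 in control cells *IGF2R* was at 57.6 and 37 FPKM, both above shCtrl (log2 1.10, SE 0.20 by limma, adjusted p = 0.011), although the replicates lay far apart. Leaving out shCtrl+shp300 #1, shCtrl #1 or shCtrl #2 ended that call (log2 0.78, 1.15 and 1.05). *ACTA2*, a smooth muscle and fibroblast gene, was at 58.4 and 56.1 FPKM in those 2 libraries and at 10.6 and 9.52 FPKM in shCtrl, while *DCN* and *COL1A2* were at 0 in all 4; its part in the *IGF2R* result was not tested. No other hairpin contrast of *IGF2R* passed. Values in shHOXB13 cells were 30.8 and 33.8 FPKM (shp300), 25 and 27.2 FPKM (shCBP), and 34.8 and 25.2 FPKM (shp300/CBP), all below both shHOXB13 libraries (log2 −0.24, −0.55 and −0.36 by limma, adjusted p = 0.52, 0.15 and 0.2), and the last was −0.59 without #1 and −0.13 without #2. In shCtrl cells it was at 21.9 and 26.6 FPKM with shCBP and at 28 and 27 FPKM with shp300/CBP (log2 0.16 and 0.35 by limma, adjusted p = 0.65 and 0.25). The 2 shp300/CBP effects differed by −0.72 log2 (by limma, adjusted p = 0.14; −0.95 without shHOXB13+shp300/CBP #1 and −0.48 without #2).

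With CCS1477 *IGF2R* was at 53.2, 61.7 and 67.2 FPKM in shCtrl and at 97.5, 99.6 and 89.6 FPKM in shHOXB13 cells, and neither contrast with DMSO passed (log2 −0.30 and 0.25 by limma, adjusted p = 0.056 and 0.08). The 2 drug effects differed from each other by 0.55 log2 (SE 0.15 by limma, adjusted p = 0.031). That difference lost its call with rescaled libraries (log2 0.42) and in 7 of the 12 fits with 1 library left out (those without shCtrl DMSO #2 or #3, shCtrl CCS1477 #2, shHOXB13 DMSO #1 or #2, or shHOXB13 CCS1477 #1 or #2, log2 0.48 to 0.57).

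**Figure D2:**
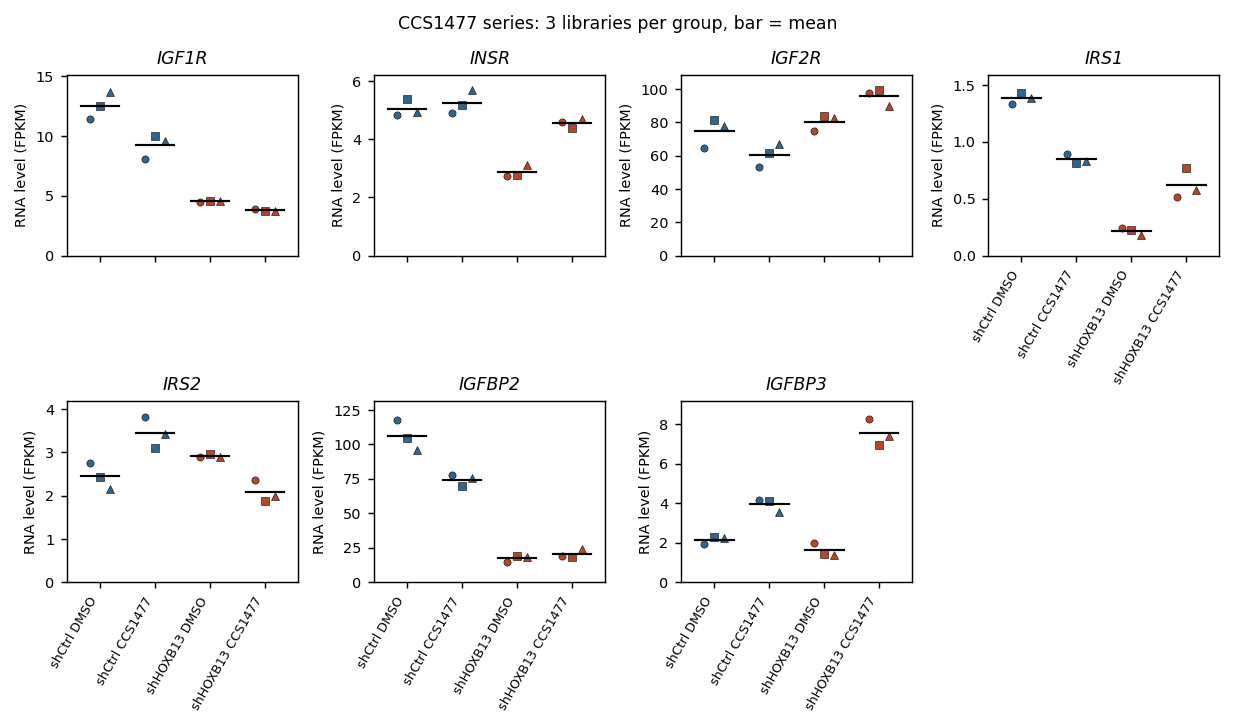
RNA level (FPKM, linear axis from 0) of the 7 members that could be tested in the CCS1477 series, by group, with 1 point per library (circle, square and triangle, replicates 1 to 3) and a bar at the mean; blue, shCtrl; red, shHOXB13. *IGFBP3* is highest in shHOXB13 cells with CCS1477 (6.97 to 8.25 FPKM), while *IGFBP2* in both shHOXB13 groups stays at or below 24 FPKM.

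*IGFBP2*, the binding protein most abundant here, showed the largest fall of any member. It was at 88.1 and 111 FPKM in shCtrl and at 11.7 and 15.3 FPKM in shHOXB13 libraries (log2 −2.88, SE 0.17 by limma, adjusted p = 4.5e-07), and at 118, 105 and 96.3 FPKM against 15.1, 19 and 18.3 FPKM with DMSO (log2 −2.60, SE 0.12 by limma, adjusted p = 9.4e-09). No library of one background reached the other in either series, and the calls held under every setting tried. The 3 basal markers, of which the keratin *KRT14* gave most, summed to 3.1 to 3.63 FPKM in shCtrl and 0.0835 to 0.11 FPKM in shHOXB13 libraries, with *KRT5* and *TP63* never above 0.333 and 0.0193 FPKM; their part in the *IGFBP2* result was not tested.

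Neither shp300 (13.5 and 12.8 FPKM) nor shCBP (11.1 and 15.5 FPKM) moved *IGFBP2* away from its shHOXB13 level (log2 −0.02 and −0.03 by limma, adjusted p = 0.98 and 0.97). With shp300/CBP it went lower still, to 7.46 and 6.59 FPKM (log2 −0.92, SE 0.17 by limma, adjusted p = 0.0026). Without #1 or #2 of those libraries the values were −1.01 and −0.83, and both passed. In control cells shp300/CBP lowered it to 47.2 FPKM in each library (log2 −1.06, SE 0.17 by limma, adjusted p = 0.0017), and the effects in the 2 backgrounds did not differ by test (0.14 log2 by limma, adjusted p = 0.78; 0.05 without shHOXB13+shp300/CBP #1 and 0.23 without #2). It was at 63.5 and 61.1 FPKM with shp300 and at 128 and 138 FPKM with shCBP, on opposite sides of shCtrl, but neither contrast passed (log2 −0.66 and 0.43 by limma, adjusted p = 0.061 and 0.13).

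CCS1477 lowered *IGFBP2* in control cells to 78, 70.1 and 75.7 FPKM (log2 −0.51, SE 0.12 by limma, adjusted p = 0.0086). In shHOXB13 cells it was at 18.8, 18.5 and 24 FPKM, overlapping DMSO (log2 0.22 by limma, adjusted p = 0.16). The difference between the drug effects was 0.73 log2 (SE 0.17 by limma, adjusted p = 0.016).

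*IGFBP3*, the main IGF carrier in plasma, did not follow *IGFBP2*. In shCtrl libraries it was at 7.38 and 7.45 FPKM and in shHOXB13 libraries at 7.65 and 9.14 FPKM (log2 0.17, SE 0.43 by limma, adjusted p = 0.8). With DMSO it was at 1.93, 2.31 and 2.25 FPKM in shCtrl and at 1.99, 1.46 and 1.41 FPKM in shHOXB13 cells, overlapping groups whose difference (log2 −0.41, SE 0.14 by limma, adjusted p = 0.029) was near the median of all genes and was −0.08 log2 with rescaled libraries. That call was also lost on recovered reads, with only the 2 groups fitted, and without shCtrl DMSO #2 or #3 or shHOXB13 DMSO #2 or #3 (log2 −0.38 to −0.32).

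CCS1477 raised *IGFBP3* in both backgrounds. In shHOXB13 cells it reached 8.25, 6.97 and 7.43 FPKM (log2 2.17, SE 0.14 by limma, adjusted p = 9.4e-07), and in shCtrl cells 4.19, 4.12 and 3.57 FPKM (log2 0.85, SE 0.14 by limma, adjusted p = 0.0013), and in neither case did treated and DMSO libraries overlap. The rise was larger in shHOXB13 cells by 1.32 log2 (SE 0.20 by limma, adjusted p = 0.0019). *CD68*, a lysosomal gene used as a macrophage marker, was at 10.8 to 11.5 FPKM with the drug and at 5.15 to 7.26 FPKM with DMSO in shHOXB13 cells, while *PTPRC* was at 0 in all 12 libraries; the part of *CD68* was not tested.

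The hairpins gave a less even picture for *IGFBP3*. In shHOXB13 cells it was at 21.1 and 18.4 FPKM with shp300, above both shHOXB13 libraries, but the contrast did not pass (log2 1.23, SE 0.43 by limma, adjusted p = 0.11). The 2 shHOXB13+shp300/CBP libraries were at 21.5 and 6.88 FPKM, 1 on each side of the shHOXB13 libraries, so the contrast (log2 0.53 by limma, adjusted p = 0.39) was 1.35 without #2 and −0.28 without #1. With shCBP it was at 3.97 and 7.4 FPKM, below both shHOXB13 libraries (log2 −0.61 by limma, adjusted p = 0.48). In the 2 shHOXB13+shp300/CBP libraries *CD68* was at 40.2 and 13.8 FPKM and *COL1A1* at 17.8 and 5.41 FPKM. *CD68* was at 20.9 and 20.8 FPKM in shHOXB13+shp300 and at 9.3 and 12.3 FPKM in shHOXB13 libraries. *PTPRC*, *DCN* and *COL1A2* were at or below 0.015 FPKM in all of these, and the part of those genes was not tested.

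In control cells *IGFBP3* was lower with shCBP (2.69 and 2.33 FPKM) and with shp300/CBP (2.33 and 3.12 FPKM) than in either shCtrl library (log2 −1.53 and −1.43, SE 0.43 for each by limma, adjusted p = 0.04 for both). Both calls sat at the threshold. They were lost with a pseudocount of 1, without the filter on low values, and when any 1 of the libraries compared was left out (log2 −1.63 to −1.43 and −1.63 to −1.22). With shp300 alone it was at 4.64 and 2.86 FPKM (by limma, adjusted p = 0.27). The shp300/CBP effect was higher in shHOXB13 than in shCtrl cells by 1.96 log2 and did not pass (SE 0.61 by limma, adjusted p = 0.074). That difference rested on the uneven shHOXB13+shp300/CBP pair: it was 2.78 and passed without #2 and was 1.15 without #1, and it also passed with rescaled libraries and on recovered reads (log2 2.03 in each).

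*IGFBP5*, a binding protein that can attach to the extracellular matrix, was almost silent in shCtrl cells and rose with shHOXB13. The 2 shCtrl libraries held 1 read each (0.0116 and 0.0118 FPKM), while the 2 shHOXB13 libraries were at 0.717 and 0.657 FPKM. Over the groups this was 95 reads against 2, a ratio of 59.1 (95% exact interval 15.9 to 495, counting error only), and limma gave 2.82 log2 (SE 0.30, adjusted p = 3.5e-05), a value that depends on the pseudocount. *IGFBP5* reached the 0.1 FPKM filter in 9 libraries of this series, mainly shHOXB13 ones. Its calls for shHOXB13 and for the difference between backgrounds are therefore no separate support. The rise did not come back in the CCS1477 series, where shHOXB13 DMSO gave 12 reads and shCtrl DMSO 8, so it was seen in 1 series of 2.

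A second hairpin took *IGFBP5* higher in shHOXB13 cells. It was at 2.02 and 2.48 FPKM when shp300 was added (log2 1.57, SE 0.30 by limma, adjusted p = 0.011) and at 3.55 and 4.51 FPKM with shp300/CBP (log2 2.38, SE 0.30 by limma, adjusted p = 0.0003). With shCBP it was at 0.924 and 1.37 FPKM, above both shHOXB13 libraries but short of the threshold (log2 0.64 by limma, adjusted p = 0.27). The shp300/CBP value was 2.55 without #1 and 2.22 without #2, and both passed, whereas the shp300 call was lost without shHOXB13 #1 or #2 or shHOXB13+shp300 #2 (log2 1.43 to 1.63).

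In control cells *IGFBP5* stayed at or below 0.134 FPKM with every hairpin, and the 3 contrasts did not pass (log2 0.93, 0.46 and 0.32). With shp300 it gave 15 reads against 2, a ratio of 9.84 (95% exact interval 2.29 to 88.7). The shp300/CBP effect was larger in shHOXB13 cells by 2.06 log2 (SE 0.43 by limma, adjusted p = 0.015), for a gene that passed the filter mainly through shHOXB13 libraries. That difference did not pass on recovered reads (log2 1.32), nor without shHOXB13 #1, shHOXB13 #2 or shCtrl+shp300/CBP #2 (log2 1.84 to 2.12), and it was 2.23 without shHOXB13+shp300/CBP #1 and 1.89 without #2, both past the threshold.

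*IGFBP6*, which prefers IGF2 over IGF1, was read in 3 groups of the knockdown series and otherwise once. It was at 1.52 and 1.26 FPKM in shHOXB13+shp300, at 0.971 and 0.886 FPKM in shHOXB13+shp300/CBP and at 0.569 and 0.697 FPKM in shCtrl+shp300/CBP libraries, and at 0 in the other 10. Against a floor of 3 reads over the group, it was at least 9.81-fold higher in shHOXB13+shp300 and at least 6.64-fold higher in shHOXB13+shp300/CBP than in shHOXB13, and at least 5.66-fold higher in shCtrl+shp300/CBP than in shCtrl. These rest on 23, 18 and 18 reads, and from shHOXB13+shp300/CBP #1 or #2 alone the second bound was 6.89-fold and 6.29-fold. *IGFBP6* entered the test only through these groups, so its calls had to follow and are no support. Among the fibroblast markers *LUM* was at 2.03 and 1.99 FPKM in shHOXB13+shp300, 0.322 and 0.867 FPKM in shHOXB13+shp300/CBP and 1.85 and 1.53 FPKM in shCtrl+shp300/CBP libraries. It was at 0.569 and 0.328 FPKM in shCtrl+shp300 and at or below 0.423 FPKM in the other 4 knockdown groups. The 7 fibroblast markers together summed to 16.1 to 20.3, 10.2 to 26 and 15.7 to 23.1 FPKM in the same 3 groups, to 57.8 to 60.5 FPKM in shCtrl+shp300 and to 4.92 to 12.8 FPKM in the other 4 knockdown groups, with *DCN* and *COL1A2* at or near 0, and their part in the *IGFBP6* result was not tested.

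*IRS1*, an adaptor of IGF1R and INSR, fell with shHOXB13 in both series. It was at 1.3 and 1.24 FPKM in shCtrl and at 0.247 and 0.433 FPKM in shHOXB13 libraries (log2 −1.67, SE 0.34 by limma, adjusted p = 0.0022), and at 1.33, 1.43 and 1.39 FPKM against 0.241, 0.225 and 0.178 FPKM with DMSO (log2 −2.24, SE 0.18 by limma, adjusted p = 1e-06). The groups did not overlap and both calls held under every setting tried. These low levels rest on 18 to 157 reads per library.

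CCS1477 moved *IRS1* in opposite directions in the 2 backgrounds. In shHOXB13 cells it rose to 0.516, 0.773 and 0.581 FPKM (log2 1.19, SE 0.18 by limma, adjusted p = 0.00041), still below all 6 shCtrl libraries. In shCtrl cells it fell to 0.896, 0.813 and 0.829 FPKM (log2 −0.65, SE 0.18 by limma, adjusted p = 0.023), a call lost without shCtrl DMSO #2 or #3 or shCtrl CCS1477 #2 or #3 (log2 −0.65 to −0.62). The 2 effects differed by 1.84 log2 (SE 0.26 by limma, adjusted p = 0.0013).

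With the hairpins no *IRS1* contrast passed. In shHOXB13 cells it was at 0.869 and 0.683 FPKM with shp300 and at 0.576 and 0.658 FPKM with shp300/CBP, above both shHOXB13 libraries (log2 1.02 and 0.74 by limma, adjusted p = 0.094 and 0.13), and at 0.537 and 0.288 FPKM with shCBP, overlapping them (log2 0.21 by limma, adjusted p = 0.79). The shp300/CBP value was 0.82 without #1 and 0.65 without #2. In shCtrl cells it was at 0.71 and 0.757 FPKM with shp300/CBP, below both shCtrl libraries (log2 −0.72 by limma, adjusted p = 0.18), and with shp300 or shCBP alone it did not pass (log2 −0.12 and −0.33 by limma, adjusted p = 0.94 and 0.58). The difference between the 2 shp300/CBP effects was 1.45 log2 (SE 0.48 by limma, adjusted p = 0.088; 1.53 without shHOXB13+shp300/CBP #1 and 1.37 without #2).

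*IRS2*, the second adaptor and a gene activated by FOXO factors when insulin signalling is low, went the other way from *IRS1*. It was at 1.55 and 1.27 FPKM in shCtrl and at 5.37 and 5.34 FPKM in shHOXB13 libraries (log2 1.86, SE 0.22 by limma, adjusted p = 6.1e-05). With DMSO the 3 shHOXB13 libraries (2.89, 2.97 and 2.9 FPKM) were above the 3 shCtrl libraries (2.76, 2.43 and 2.15 FPKM) by less (log2 0.25, SE 0.13 by limma, adjusted p = 0.12), a difference that passed only with rescaled libraries (log2 0.59).

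With shp300 or shp300/CBP added, *IRS2* was lower than with shHOXB13 alone. These falls and the rise with shHOXB13 use the same shHOXB13 libraries, so they are not separate evidence. It was at 1.54 and 2.07 FPKM with shp300 (log2 −1.53 against shHOXB13, SE 0.22 by limma, adjusted p = 0.0021) and at 1.67 and 2.15 FPKM with shp300/CBP (log2 −1.45, SE 0.22 by limma, adjusted p = 0.00075). The second value was −1.28 without #1 and −1.62 without #2, and both passed. With shCBP it was at 3.37 and 2.64 FPKM, between the shHOXB13 and shCtrl libraries (log2 −0.82, SE 0.22 by limma, adjusted p = 0.072).

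In control cells *IRS2* was at 2.7 and 2.07 FPKM with shp300/CBP, above both shCtrl libraries (log2 0.71, SE 0.22 by limma, adjusted p = 0.04). This call was lost without the filter on low values, with rescaled libraries, with only the 2 groups fitted, and when any 1 of the 4 libraries was left out (log2 0.53 to 0.90). The opposite effects in the 2 backgrounds differed by −2.17 log2 (SE 0.31 by limma, adjusted p = 0.0024), a difference that held under every setting tried and was −1.99 without shHOXB13+shp300/CBP #1 and −2.34 without #2. With shp300 (1.07 and 1.15 FPKM) or shCBP alone (1.6 and 1.79 FPKM) no contrast passed in control cells (log2 −0.32 and 0.25 by limma, adjusted p = 0.54 and 0.5).

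CCS1477 gave the same split. It lowered *IRS2* in shHOXB13 cells to 2.37, 1.87 and 1.99 FPKM (log2 −0.48, SE 0.13 by limma, adjusted p = 0.014) and raised it in shCtrl cells to 3.82, 3.1 and 3.42 FPKM (log2 0.48, SE 0.13 by limma, adjusted p = 0.021), with no overlap with DMSO in either. The effects differed by −0.96 log2 (SE 0.19 by limma, adjusted p = 0.0074). The fall lost its call without shHOXB13 CCS1477 #2 (log2 −0.41), and the rise without shCtrl CCS1477 #1, shCtrl DMSO #2 or shCtrl DMSO #3 (log2 0.40 to 0.48) and with only the 2 groups fitted.

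Without shCtrl DMSO #1, the shHOXB13 contrast with DMSO was −1.50 log2 for *IGF1R*, −0.82 for *INSR*, −2.52 for *IGFBP2*, −0.48 for *IGFBP3* and −2.27 for *IRS1*, all of which passed, and 0.01 for *IGF2R* and 0.34 for *IRS2*, which did not. The CCS1477 contrast in shCtrl cells was −0.51 for *IGF1R*, −0.43 for *IGFBP2*, 0.77 for *IGFBP3*, −0.68 for *IRS1* and 0.57 for *IRS2* without that library, and −0.35, −0.54, 0.80, −0.69 and 0.41 without shCtrl CCS1477 #1. All of these passed except the last. *IGF2R* passed without shCtrl DMSO #1 (log2 −0.40) and not without shCtrl CCS1477 #1 (log2 −0.21), and *INSR* passed in neither case (0.02 and 0.10). The 6 differences between the drug effects that passed also did so without either library, at 0.65 and 0.45 for *IGF2R*, 0.63 and 0.55 for *INSR*, 0.65 and 0.76 for *IGFBP2*, 1.40 and 1.36 for *IGFBP3*, 1.87 and 1.88 for *IRS1*, and −1.05 and −0.89 for *IRS2*, while that of *IGF1R* did not (0.25 and 0.09).

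**Figure D3:**
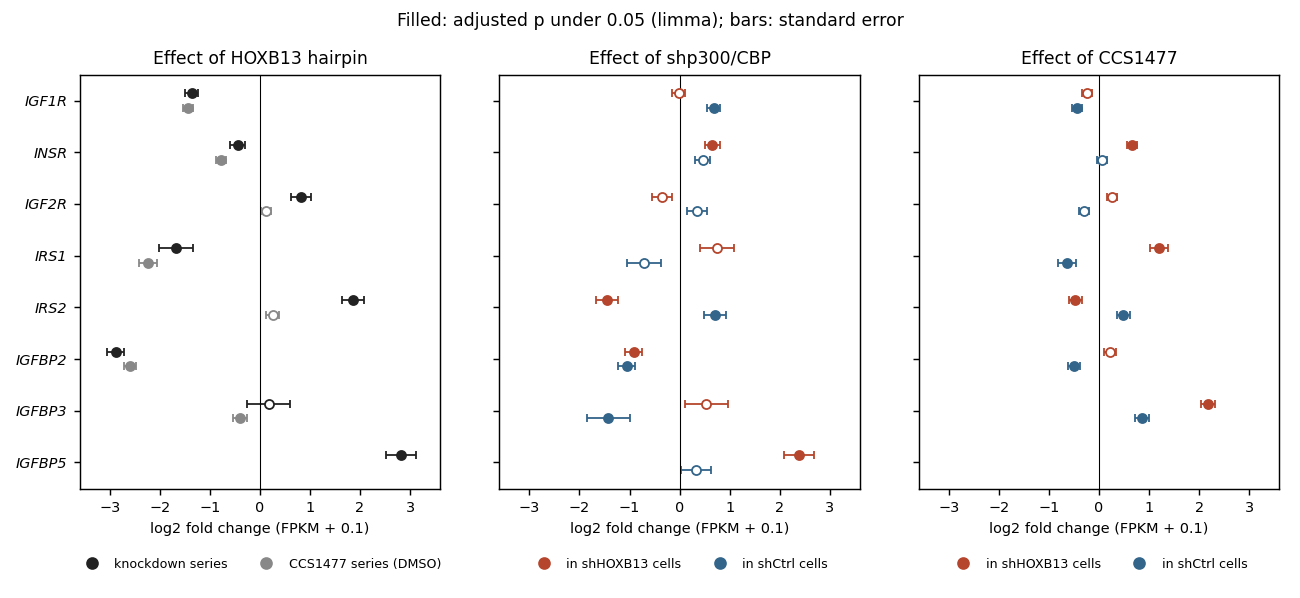
log2 fold changes (log2(FPKM + 0.1) scale) with limma standard errors for 8 members: left, shHOXB13 against shCtrl in the 2 series; middle, shp300/CBP added to shHOXB13 or shCtrl cells; right, CCS1477 against DMSO in each background; filled points passed at adjusted p under 0.05. *IRS2* lies on opposite sides of 0 in the 2 backgrounds in the middle panel (−1.45 and 0.71) and in the right panel (−0.48 and 0.48); *IGFBP5* has no point in the CCS1477 series, where it was not tested.

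By count, 7 of the 9 members tested (10 in all) changed with shHOXB13 in the knockdown series (3 higher, 4 lower), where 39.2% of the 17678 genes tested did (8.45% higher, 30.8% lower). The 3 higher include *IGFBP5*, which reached the 0.1 FPKM filter mainly through the shHOXB13 groups. Among the 7 members with reads in every library, 2 were higher and 4 lower. In the CCS1477 series 5 of the 7 tested were lower and 0 higher by limma, where 57.6% of the 15907 genes tested changed (15.2% higher, 42.4% lower); at unadjusted p under 0.05 the number higher was also 0. Over the 7 members with reads in every library the median was −0.45 log2 in the first series and −0.79 in the second, against −0.33 for all genes in both, and −0.06 and −0.46 with rescaled libraries.

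Adding shp300 to shHOXB13 changed 3 of the 9 members tested (2 higher, 1 lower), where 6.94% of all genes changed (3.50% higher, 3.44% lower). Adding shp300/CBP changed 5 (3 higher, 2 lower), where 26.7% of all genes did (10.4% higher, 16.2% lower). Adding shCBP changed 0 by limma, where 1.53% of all genes did (0.402% higher, 1.13% lower), with 2 members at unadjusted p under 0.05 and 1 (*IRS2*) by limma voom on recovered reads. In shCtrl cells shp300 changed 1 member, which was higher (3.25% of all genes, 1.05% higher and 2.19% lower), shCBP 2 (1 in each direction; 12.2%, 4.14% higher and 8.09% lower) and shp300/CBP 5 (3 higher, 2 lower; 18.3%, 8.90% higher and 9.40% lower). The shp300/CBP effect differed between backgrounds for 3 members (1 higher, 2 lower in shHOXB13 cells), where 8.13% of all genes differed (2.54% higher, 5.59% lower). These counts include *IGFBP5* and *IGFBP6*, which reached the 0.1 FPKM filter mainly or only through the groups where they were high. Without *IGFBP6* the counts were 2 (1 higher, 1 lower) for shHOXB13+shp300, 4 (2 and 2) for shHOXB13+shp300/CBP and 4 (2 and 2) for shCtrl+shp300/CBP. Over the 7 members with reads in every library the median was between −0.12 and 0.35 log2 in the 6 contrasts against single-hairpin cells, and that of all genes between −0.11 and 0.00. With only the groups compared in the fit, shHOXB13+shp300, shHOXB13+shCBP, shHOXB13+shp300/CBP, shCtrl+shp300 and shCtrl+shCBP each gave 0 members and 0.00% of all genes by limma, so those calls rest on the spread shared by the 16 libraries. The shHOXB13 contrast, the contrasts against shHOXB13 and the difference between backgrounds use the same shHOXB13 libraries, so they are not separate evidence.

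CCS1477 changed 4 of the 7 members tested in shHOXB13 cells (3 higher, 1 lower; 39.6% of all genes, 29.2% higher and 10.4% lower) and 5 in shCtrl cells (2 higher, 3 lower; 25.3% of all genes, 15.4% higher and 9.91% lower). The drug effect differed between backgrounds for 6 members (5 higher, 1 lower in shHOXB13 cells), where 13.3% of all genes differed (9.10% higher, 4.15% lower). The median of the 7 members was 0.25 log2 in shHOXB13 cells, −0.30 in shCtrl cells and 0.60 for the difference, against 0.20, 0.06 and 0.13 for all genes. The difference contrasts and both single contrasts use the same DMSO libraries, so they are not separate evidence.

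Ratios within a library do not depend on its scaling, and show how the mixture of receptors, carriers and adaptors shifted. The *INSR* to *IGF1R* ratio was 0.313 and 0.316 in shCtrl and 0.584 and 0.603 in shHOXB13 libraries. In the CCS1477 series it was 0.361 to 0.431 in shCtrl DMSO, 0.515 to 0.61 in shCtrl CCS1477 and 0.611 to 0.674 in shHOXB13 DMSO libraries. It was 1.17 to 1.25 with CCS1477 in shHOXB13 cells, the one group in which *INSR* exceeded *IGF1R* in all libraries. The *IGFBP2* to *IGFBP3* ratio was 11.9 and 14.8 in shCtrl, 1.53 and 1.67 in shHOXB13, and 0.641 and 0.694 in shHOXB13+shp300 libraries. It was 42.9 to 61 in shCtrl DMSO and 17 to 21.2 in shCtrl CCS1477 libraries, and 7.62 to 13 in shHOXB13 DMSO and 2.28 to 3.24 in shHOXB13 CCS1477 libraries. The *IRS2* to *IRS1* ratio was 1.19 and 1.03 in shCtrl and 21.7 and 12.3 in shHOXB13, and with shp300 added it was 1.77 and 3.03. With DMSO it was 1.55 to 2.07 in shCtrl and 12 to 16.3 in shHOXB13 libraries. With CCS1477 it was 3.81 to 4.27 in shCtrl and 2.42 to 4.59 in shHOXB13 libraries.

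**Figure D4:**
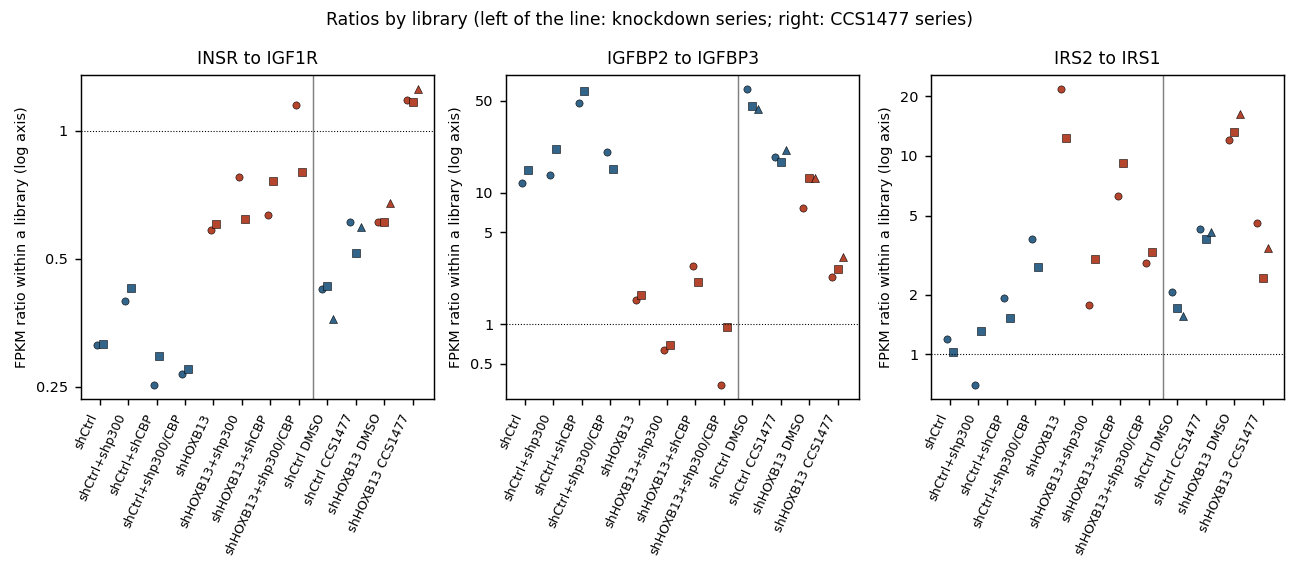
Ratio of FPKM values within each library (log axis) for *INSR* to *IGF1R*, *IGFBP2* to *IGFBP3* and *IRS2* to *IRS1*, by group, 1 point per library; the vertical line separates the knockdown series from the CCS1477 series and the dotted line marks a ratio of 1. The *IRS2* to *IRS1* ratio is highest with shHOXB13 alone (12.3 and 21.7) and with shHOXB13 DMSO (12 to 16.3).

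Ligands were scarce in these cells. *IGF1* did not exceed 0.833 FPKM, *IGF2* gave 5 and 6 reads over the 2 series, and *INS* and *IGFBP1* gave 0 reads, while *IGFBP7* gave 9 and 1. *IGF1* was highest in shCtrl DMSO (0.807, 0.833 and 0.728 FPKM) and fell with shHOXB13 (0.141, 0.0959 and 0.0553 FPKM, log2 −2.19 by limma, adjusted p = 4.01e-05) and with CCS1477 in shCtrl cells (0.183, 0.431 and 0.275 FPKM, log2 −1.21 by limma, adjusted p = 0.00857). In the knockdown series it was at 0.306 and 0.263 FPKM in shCtrl and at 0.092 and 0.161 FPKM in shHOXB13, and did not pass (log2 −0.78 by limma, adjusted p = 0.177).

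Of 49 other genes of the IGF and insulin pathway, 40 were tested in each series. With shHOXB13, 5 rose and 12 fell in the knockdown series and 9 rose and 21 fell with DMSO, with a median of −0.37 log2 in both against −0.33 for all genes, of which 39.2% and 57.6% changed. The largest falls in the first were *PIK3R1*, a PI3K regulatory subunit, from 18.3 to 1.85 FPKM (log2 −3.23), *GRB10*, an adaptor that restrains both receptors, from 71.5 to 10.4 FPKM (log2 −2.77), and *FOXO3* (log2 −2.01). *PIK3R1* and *GRB10* were again among the 3 largest in the second (log2 −2.67 and −2.55), behind *STC2*, an inhibitor of the IGFBP protease PAPPA, which fell from 36.9 to 3.62 FPKM (log2 −3.32).

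In shHOXB13 cells, shp300 changed 5 of the 40 (2 higher, 3 lower; 6.94% of all genes), shCBP 1 (higher; 1.53% of all genes) and shp300/CBP 10 (3 higher, 7 lower; 26.7% of all genes). *SOCS2*, which limits growth hormone signalling, was lower with shp300 and shp300/CBP (log2 −1.20 and −1.70), and *INPPL1*, a phosphatase of PI3K lipids, was higher with shp300 and shCBP (log2 0.67 and 0.58). *INPPL1* was highest with shp300/CBP, at 61.1 and 60.9 FPKM against 29.6 and 30.9 FPKM in shHOXB13, though not among the 3 largest changes there. The transcription factor *FOXO4* was lower with shp300 (log2 −0.94), and *IGFALS*, the acid-labile subunit of circulating IGF complexes, and the adaptor *GRB14* were higher with shp300/CBP (log2 1.11 and 1.06 by limma, adjusted p = 0.033 and 0.049). Those 2 rises rest on few reads, 58 against 28 for *IGFALS* and 79 against 39 for *GRB14* over the groups. In shCtrl cells the counts were 1 higher and 3 lower with shp300 (3.25% of all genes), 1 and 5 with shCBP (12.2%), and 1 and 5 with shp300/CBP (18.3%), and *PIK3R3*, another PI3K regulatory subunit, fell in all 3 (log2 −0.96, −1.18 and −1.47). *PIK3R1* was lower there with shp300 and shp300/CBP (log2 −0.88 and −1.49), the adaptor *SHC1* with shCBP and shp300/CBP (log2 −1.03 and −1.14), while *GRB10* was higher with shp300 (log2 0.62) and *HTRA1* with shCBP (log2 1.64).

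With CCS1477, 15 rose and 5 fell in shHOXB13 cells (39.6% of all genes changed) and 9 rose and 9 fell in shCtrl cells (25.3%). *HTRA1*, a secreted protease that can cut IGFBPs, led in both, from 0.241 to 2.29 FPKM (log2 2.79 by limma, adjusted p = 6.3e-05) and from 0.274 to 1.18 FPKM (log2 1.84 by limma, adjusted p = 0.002). *SOCS2* and *SHC1* were lower with the drug in shHOXB13 cells (log2 −1.30 and −1.19), and in shCtrl cells *STC2* was lower (log2 −1.54) and *GRB10* higher (log2 0.58). The effect of shp300/CBP differed between backgrounds for 5 of the 40 (2 higher and 3 lower, against 8.13% of all genes). That of CCS1477 differed for 9 (6 higher and 3 lower, against 13.3% of all genes). In each, the difference (shHOXB13 minus shCtrl) was negative for *SOCS2* (log2 −1.76 and −0.98) and positive for *PIK3R1* (log2 1.02 and 1.08). With shp300/CBP *PIK3R1* went from a mean of 18.3 to 6.41 FPKM in shCtrl cells. In shHOXB13 cells it went from 1.85 to 1.31 FPKM, a smaller fall. CCS1477 took it from 17.9 to 13 FPKM in shCtrl and from 2.72 to 4.23 FPKM in shHOXB13 cells. *PIK3CB*, a PI3K catalytic subunit, differed by −1.12 log2 for shp300/CBP, and *RICTOR*, of the mTORC2 complex, by 0.83 log2 for CCS1477.

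Across all 28 libraries, each centred on the mean of its series, the patterns most like those of the members were found by Pearson correlation among genes of at least 1 FPKM on average. The closest was *IGFBP2* with *KCNN2* (r = 0.981), *YBX3* (0.976) and *PMEPA1* (0.971), and *IGF1R* was nearest to *EFNB2* (0.976), *SLC45A3* (0.972) and *PGRMC1* (0.968). *INSR* was most like *TSPAN6* (0.935), *IRS1* most like *JADE3* (0.921), *IGFBP3* most like *PRAME* (0.902), *IGFBP5* most like *SYNE4* (0.878), *IGF2R* most like *ACVR1B* (0.801) and *IRS2* most like *CD24* (0.760). For *IGFBP6* the 3 nearest were *DDX58* (0.910), *CMPK2* (0.837) and *IRF9* (0.825), which are interferon-induced genes. *IGFBP6* had reads in 7 of the 28 libraries, 60 in all, so its r mainly sets those few libraries apart from the rest. These are descriptions over libraries that share hairpins and controls, and carry no test.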

How the data were processed

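The 28 LNCaP libraries were polyA RNA-seq, prepared from biological duplicates or triplicates. The authors used STAR (2.6.0, per the submitters' processing notes) for alignment of paired-end reads on GRCh38, counted reads per gene and converted them with a Perl script to FPKM, which is the unit of the deposited values. The authors tested counts pairwise with DESeq2, but the files used here hold FPKM, so limma took its place here. Dividing by all mapped reads makes FPKM sensitive to the share of reads in genes, which was 52.6 to 74.2% in the knockdown series and 78.3 to 83.9% in the CCS1477 series. Multiplying FPKM by gene length and depth returned whole reads (within 0.05) for all values above 0, which gave mapped reads of 7458934 to 16338528 per library, read numbers and floors (3 reads). Intervals and floors cover counting error only, since reads carry no molecular identifiers.

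Each series had 1 limma 3.58.1 fit (R 4.3.3) of log2(FPKM + 0.1) over all its groups, with a mean-dependent prior, two-sided tests and Benjamini-Hochberg adjustment over all genes that reached 0.1 FPKM in at least 2 (knockdown, 17678 genes) or 3 (CCS1477, 15907 genes) libraries. A gene changed at adjusted p under 0.05, with no fold threshold. Interactions set the effect of shp300/CBP or CCS1477 in shHOXB13 cells against that in shCtrl cells. Alternatives were a pseudocount of 1, no filter, median-of-ratios scaling, a replicate block, only the groups compared, each library left out and, added after the data were seen, limma voom on recovered reads. The test was checked on simulated reads with the same spread for every gene and few genes changed. That check did not cover uneven replicates, a general shift or the interactions. The genes named are the members, with the hairpin targets, the ligands and other binding proteins, the 3 largest changes per contrast among other pathway genes of at least 1 FPKM, and the 3 genes most like each member. The members and gene lists were chosen with earlier results of these data known. Coordinates are from GENCODE 44 and promoters from RefSeq, in which all 10 members matched.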

Additional observations from a re-analysis of the deposited data

Results flagged for a closer look

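The effect of shp300/CBP differed between shHOXB13 and shCtrl cells, by the limma interaction, for 3 members. The difference (shHOXB13 minus shCtrl) was −2.17 log2 for *IRS2*, −0.70 for *IGF1R* and 2.06 for *IGFBP5*, which passed the filter mainly through shHOXB13 libraries. With each of the 8 libraries left out in turn, *IRS2* passed in 8 of 8 fits, *IGF1R* in 1 and *IGFBP5* in 5, and *IGFBP5* did not pass by voom. The effect of CCS1477 differed between the backgrounds for 6 members. The difference was −0.96 log2 for *IRS2*, 0.60 for *INSR*, 0.73 for *IGFBP2*, 1.84 for *IRS1*, 0.55 for *IGF2R* and 1.32 for *IGFBP3*. With each of the 12 libraries left out in turn, *IGF2R* passed in 5 of 12 fits and the other 5 in 12 of 12. *IRS2* was the one member in both sets, and its sign was the same in both.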

How the results depend on the processing

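Of 100 member contrasts, 46 passed; 26 of the 46 kept their call under every alternative that used all libraries of the groups compared, and 24 kept it under all settings but voom, and with each library left out. No fold change that passed changed sign. The number of members called moved by more than 1.5 times in these cases. For shHOXB13+shp300 (3 called) it was 5 by voom and 0 with only the groups compared; for shHOXB13+shCBP (0), 1 by voom; for shHOXB13+shp300/CBP (5), 0 with only the groups compared. For shCtrl+shp300 (1) it was 2 with a pseudocount of 1 and with rescaling, 3 by voom and 0 with only the groups compared. For shCtrl+shCBP (2) it was 1 with a pseudocount of 1 and without the filter, 4 with rescaling and 0 with only the groups compared; for shCtrl+shp300/CBP (5), 3 without the filter; for CCS1477 in shCtrl cells (5), 3 with only the groups compared. Fits of only the groups compared have fewer libraries behind the spread; the cause of the other moves was not tested.

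With 1 library left out, the count ranged from 6 to 6 for shHOXB13, 2 to 3 for shHOXB13+shp300, 0 to 0 for shHOXB13+shCBP, 4 to 6 for shHOXB13+shp300/CBP, 0 to 1 for shCtrl+shp300, 0 to 1 for shCtrl+shCBP, 3 to 3 for shCtrl+shp300/CBP and 1 to 4 for the shp300/CBP interaction. It ranged from 4 to 5 for shHOXB13 DMSO, 3 to 4 for CCS1477 in shHOXB13 cells, 3 to 6 for CCS1477 in shCtrl cells and 5 to 6 for the CCS1477 interaction. A group left with 1 library was assumed to vary like the others.

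Replicate numbers were not used as pairs: same-numbered libraries of different groups correlated at r = −0.06 to 0.12 in the knockdown series, with 2 of 28 pairs over 0.1, and at −0.07 to 0.32 in the CCS1477 series, with 1 of 6 pairs over 0.1 for each number. With the replicate block, the count for shCtrl+shCBP was 1, and the other counts stayed within 1.5 times. Calls lost were those of *IGFBP3* with shCtrl+shCBP (log2 −1.53), *IRS2* with shCtrl+shp300/CBP (0.71) and *IGF1R* in the shp300/CBP interaction (−0.70). Rescaling moved the share of all called genes that were higher from 21.5% to 52.6% for shHOXB13, from 26.3% to 51.1% for shHOXB13 DMSO and from 73.6% to 46.8% for CCS1477 in shHOXB13 cells. Depth limited *IGFBP4*, *IGFBP5* and *IGFBP6*.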
